A study of Homo sapiens with 6 samples.

Results

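The mitochondrial ribosomal protein genes were examined in the RNA of MDA-MB-231 cells, a human triple-negative breast cancer line labelled wild type. The cells had been cultured for 24 h with vehicle or with SCH, an extract of the herb Salvia chinensis Benth, at 100 mg/l. The study asked which transcripts respond to the extract, and this comparison asks what happened to the transcripts that encode the protein part of the mitochondrial ribosome. The rule for members reads only name and annotation, and takes every protein-coding gene whose symbol is MRPL or MRPS followed by a number. This gave 78 of the 58735 genes in the count table. There were 3 vehicle and 3 SCH samples, described by the submitters as biological repeats of a single cell line. The SDs given are the spread between those repeats, and the standard errors (SE) come from a model fitted over all genes tested. Per the labels the cells were kept in RPMI-1640, whereas the methods of the study give DMEM, and both groups are described with the same culture.

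Mitochondria carry their own ribosome, which translates only the 13 proteins encoded by mitochondrial DNA, all of them subunits of the oxidative phosphorylation complexes. Its rRNAs come from the mitochondrial genome, but every one of its proteins is encoded in the nucleus, made in the cytosol and imported. Many of these proteins descend from bacterial ribosomal proteins, and others were added during the evolution of mitochondria and surround the older core. The large subunit (mostly MRPL genes) joins amino acids and passes the new chain into the inner membrane, and the small subunit (mostly MRPS genes) binds the mRNA and decodes it. In tumor cells the production of mitochondrial ribosomes is known to follow growth signals and to help set the capacity for respiration.

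The vehicle libraries held 20291379, 18714240 and 18334857 counts, and the SCH libraries 16836369, 17979434 and 18414924. The members received between 74376 and 102753 counts per library, and the average count of a single member ran from 51.7 for MRPL53 to 3293 for MRPL37, with a median of 1062. Most of the markers listed for the line stood as listed. VIM, the mesenchymal filament protein, stood at 263 FPKM (fragments scaled to gene length and library depth) in vehicle and 180 FPKM in SCH, AXL at 293 and 164 FPKM, CAV1 at 103 and 45.9 FPKM, MSN at 118 and 105 FPKM, and CD44 at 96.6 and 99.3 FPKM. Of these 5 genes, all but CD44 were lowered. When scaled by library size alone, MSN did not pass (log2 fold change -0.0828, edgeR adjusted p = 0.103) and CD44 was raised (0.14, adjusted p = 0.0112). The estrogen receptor gene ESR1 (1 to 4 counts per library), the progesterone receptor gene PGR (0 or 1) and the E-cadherin gene CDH1 (1 to 6) were at or near 0. The other markers listed as low in this line were measurable, with ERBB2 at 6.67 FPKM in vehicle and 8.22 FPKM in SCH (raised), EPCAM at 6.53 and 4.59 FPKM (lowered) and GATA3 at 3.84 and 2.24 FPKM (lowered). Of the markers of other cell types, PTPRC had 3 to 39 counts and PECAM1 15 to 30, and CD3E and ALB had at most 3. These 4 markers together made up 0.000308% of the counts in vehicle and 0.000162% in SCH, and PTPRC, the only one past the test, was lowered. In a bulk sample, fewer cells of a kind and less RNA per cell cannot be told apart.

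The mitochondrial ribosomal protein genes were mostly lower after SCH, by modest amounts. All 78 members passed the filter on low counts, and 43 of them (55.1%) were lowered and 5 (6.41%) raised at an adjusted p of 0.05 in the edgeR quasi-likelihood test. Over all 14736 genes tested, 29.4% were lowered and 29.3% raised. Counted without regard to direction, 61.5% of the members passed the test against 58.7% of all genes, a share close to the background, while the directions of the calls were unequal among the members. Of the 30 members that did not pass, 22 had a negative and 8 a positive log2 fold change. The SCH samples did not overlap the vehicle samples for 51 members (65.4%, against 62.4% of all genes), with SCH below vehicle for 45 and above it for 6.

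The median log2 fold change of the members was -0.18, against -0.00345 over all genes tested, and single members ran from -0.81 for MRPL24 to 0.72 for MRPL53. Fold changes were small relative to other responses in these cells. The median size among the called members was 0.39 on the log2 scale, against 0.46 among all called genes, 14 members were lowered by at least 0.5, and none changed by 1 or more, whereas 14.9% of all called genes did. The median standard error of the members was 0.0665. Values here are scaled by TMM, which sets a factor of 0.961 to 0.971 for the vehicle and 1.034 to 1.038 for the SCH libraries. Scaling by library size alone moved the median of all genes by 0.103, left 33 members lowered (22.4% of all genes) and 8 raised (37.5% of all genes), and placed the members' median at -0.0753.

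**Figure D1:**
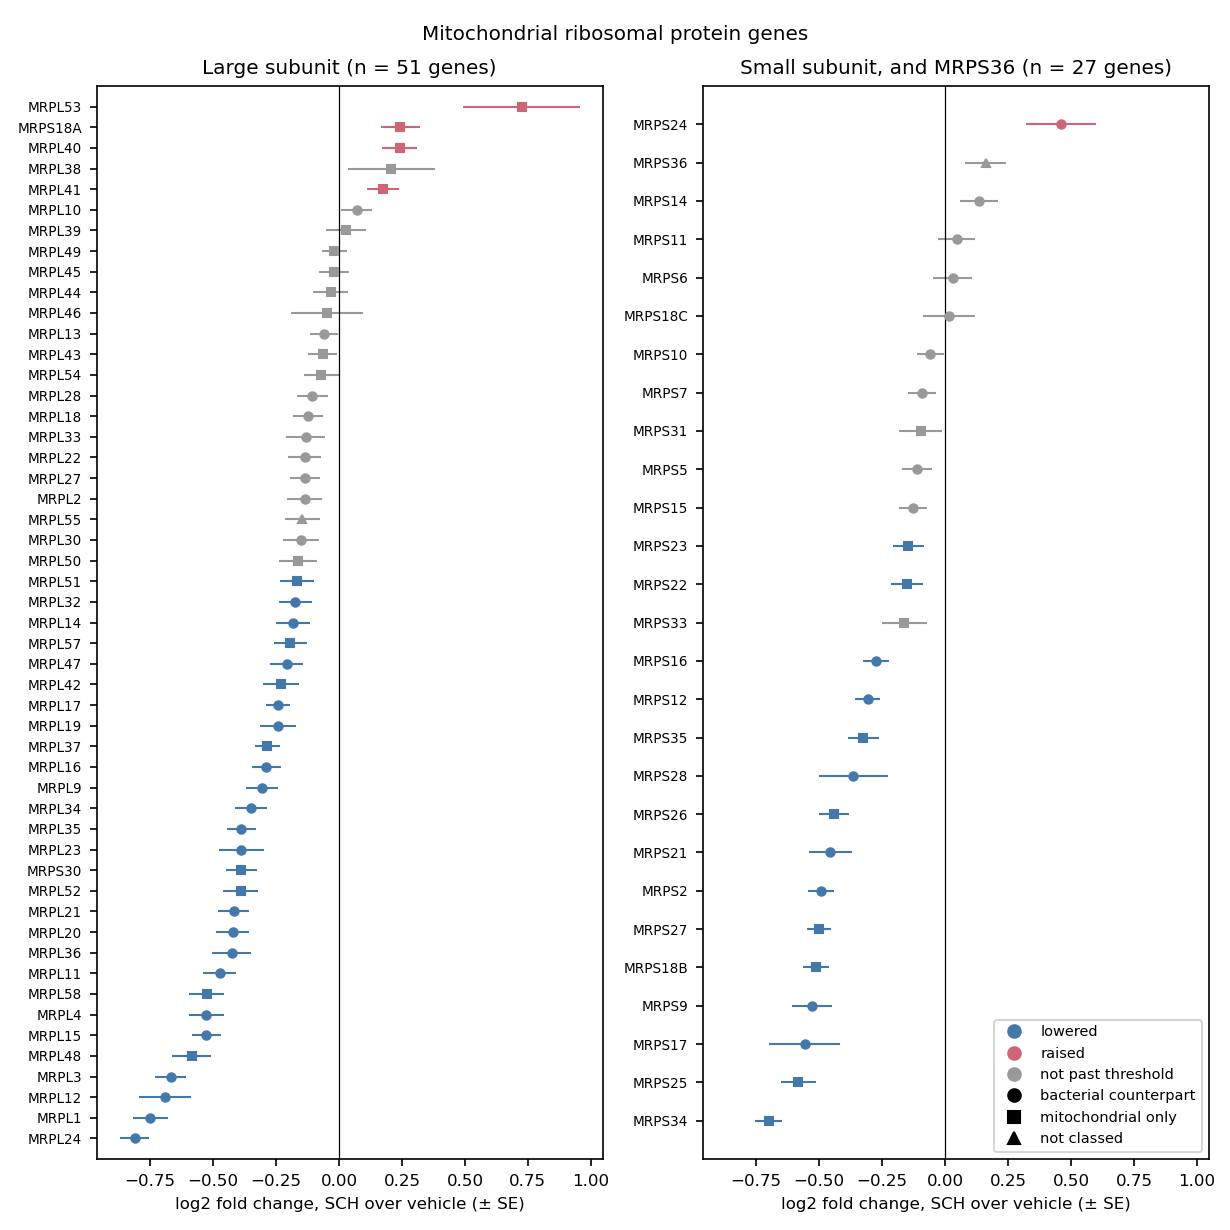
The log2 fold change of SCH over vehicle (x axis) for each of the 78 members (rows), with large-subunit genes on the left and small-subunit genes and MRPS36 on the right. Points are edgeR estimates and bars their standard errors, colors give the call at an adjusted p of 0.05 and shapes the evolutionary class. Most points lie left of 0, from MRPL24 at -0.81, and the 5 raised genes lie right of 0.

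MRPL24 had the largest decrease. It encodes a large-subunit protein that lies beside the exit of the tunnel through which the new protein leaves, and it is located at chr1:156737303-156741590 on GRCh38, minus strand. Its vehicle samples held 96.4, 97.6 and 87.2 normalized CPM (counts scaled to library size), and its SCH samples 54.0, 52.5 and 53.6 CPM. The lowest vehicle sample thus stood well above the highest SCH sample. Per length the gene went from 53.4 ± 3.28 to 30.6 ± 0.477 FPKM (SD, n = 3), and the log2 fold change was -0.81 with a standard error of 0.0591 (edgeR adjusted p = 4.62e-11).

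MRPL1 (chr4:77862520-77952790, plus strand) forms the L1 stalk, the mobile arm that guides the spent tRNA out of the ribosome. It measured 49.4, 46.4 and 53.0 CPM in vehicle and 27.9, 29.8 and 30.7 CPM in SCH, again with a clear gap between the groups, and its log2 fold change was -0.75 (SE 0.0703, adjusted p = 3.39e-09). MRPL3 (chr3:131462212-131502983, minus strand), whose bacterial relative reaches towards the peptidyl transferase center, measured 123, 130 and 134 CPM against 73.4, 81.3 and 87.8 CPM. It fell by 0.67 on the log2 scale (SE 0.0612). As percentages, MRPL1 fell by 40.5% and MRPL3 fell by 37.1%, more than the spread within either group.

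MRPS34, a small-subunit protein found only in mitochondria (chr16:1771890-1773155, minus strand), was on average the most abundant member per length in vehicle. It was found at 157, 160 and 149 CPM in vehicle and at 98.0, 96.6 and 92.6 CPM in SCH. Its level fell from 137 ± 5.03 to 84.8 ± 2.77 FPKM (SD, n = 3), a log2 fold change of -0.70 (SE 0.0519, adjusted p = 5.93e-11). After SCH the most abundant member on average was MRPL14, at 115 ± 3.77 FPKM. In vehicle MRPL14 stood at 130 ± 16.0 FPKM, and in vehicle replicate 2 it lay above MRPS34 (143 against 141 FPKM).

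MRPL12 (chr17:81703357-81707526, plus strand) encodes the protein of the L7/L12 stalk, which recruits translation factors, and is also reported to bind the mitochondrial RNA polymerase. It gave 41.1, 44.6 and 30.3 CPM in vehicle and 26.6, 22.6 and 22.7 CPM in SCH. Vehicle replicate 3 lay much nearer to the SCH samples than the other two did, and the standard error of 0.104 around the log2 fold change of -0.69 was wider than for the genes above. In addition, 68.2% of its exonic bases are shared with other genes, including AC139530.2 on the same strand. Its counts therefore depend on how such reads were assigned. MRPL48 (chr11:73787316-73865133, plus strand), a mitochondria-specific protein of the central protuberance, measured 39.2, 41.7 and 36.7 CPM in vehicle against 24.0, 25.4 and 28.8 CPM, a log2 fold change of -0.59 (SE 0.0781).

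The rises were fewer and most were smaller. MRPS24, a small-subunit protein at the mRNA entrance (chr7:43866558-43869893, minus strand), gave 5.33, 5.57 and 4.44 CPM in vehicle and 7.05, 6.87 and 7.20 CPM in SCH. The groups were apart, and its log2 fold change was 0.46 (SE 0.139, adjusted p = 0.00674) from a mean count of 112. Other genes, including the readthrough gene URGCP-MRPS24, share 23.2% of its exonic bases. MRPL40 (chr22:19431902-19436075, plus strand), a protein of the central protuberance whose exons overlap no other gene, measured 29.1, 31.5 and 30.5 CPM against 35.0, 36.5 and 36.0 CPM, a rise of 0.24 on the log2 scale (SE 0.0687, adjusted p = 0.00440).

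MRPS18A (chr6:43671303-43687791, minus strand) rose by a similar amount, 0.24 (SE 0.0784, adjusted p = 0.0105), from 24.2, 21.2 and 23.4 CPM to 26.2, 27.2 and 28.2 CPM. Its exons share 47.0% of their bases with other genes, including RSPH9 on the opposite strand. MRPL41 (chr9:137551199-137552555, plus strand), a large-subunit protein also reported to promote apoptosis, gave 108, 105 and 92.3 CPM in vehicle and 126, 110 and 110 CPM in SCH, so that the lowest SCH samples lay only just above the highest vehicle sample. The log2 fold change of 0.17 (SE 0.0642, adjusted p = 0.0235) did not pass without vehicle replicate 3 or without SCH replicate 1, where it was 0.11 in both. Nor did it pass with upper quartile scaling (adjusted p = 0.0586) or with limma on log2(FPKM + 1) (0.0721) and log2(FPKM + 0.1) (0.0693).

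MRPL53 (chr2:74471958-74473322, minus strand), which is placed near the stalk, was the fifth gene raised and had the highest log2 fold change of all members, 0.72 (SE 0.231, adjusted p = 0.00968). It was counted only 51.7 times per library on average, and gave 2.26, 2.56 and 1.52 CPM in vehicle and 3.10, 4.51 and 2.89 CPM in SCH. MRPL53 shares 45.2% of its exonic bases with other genes, including CCDC142. Its call was lost without vehicle replicate 3 (0.54) and without SCH replicate 2 (0.51). MRPS18A likewise did not pass without vehicle replicate 2, at 0.19. MRPS24 and MRPL40 were raised under each of the alternative settings tried.

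**Figure D2:**
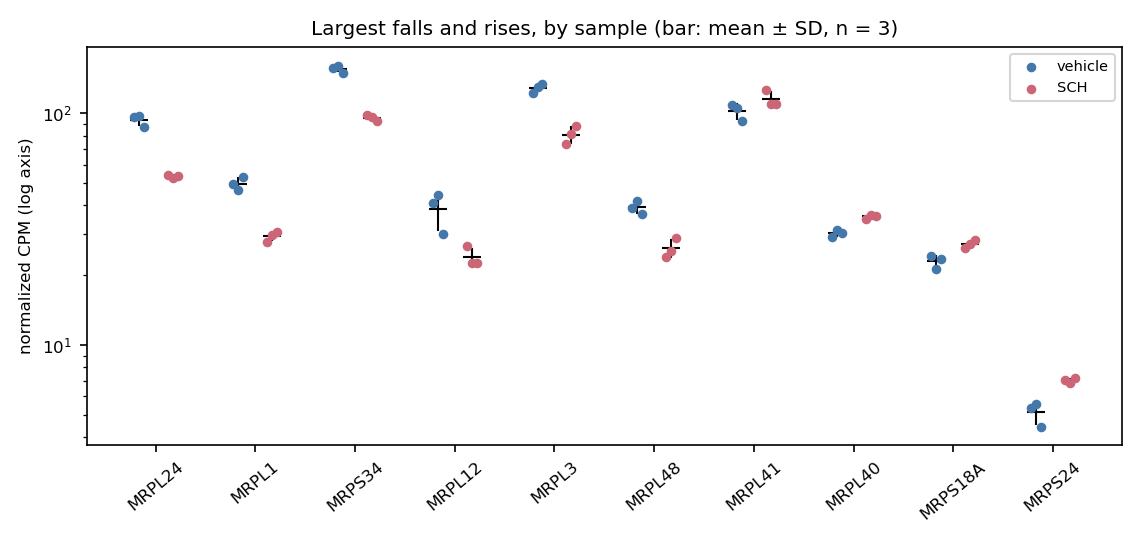
Normalized CPM on a log axis (y axis) in each of the 3 vehicle and 3 SCH samples for the 6 largest falls and the 4 rises that passed the test with a mean count of at least 100 (x axis); points are samples and bars the mean ± SD. MRPL24 sits at 87.2 to 97.6 CPM in vehicle and 52.5 to 54.0 CPM in SCH, while the rises are narrow, as for MRPL40 at 29.1 to 31.5 against 35.0 to 36.5 CPM.

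Nuclear genes for mitochondrial proteins often carry binding sequences for NRF1, for the ETS-family factor GABP, for YY1 and, at the E-box, for MYC near their starts, and these letters were searched on both strands of RefSeq promoter windows (GRCh38.p14, 250 bases before and 50 from the annotated start). A window was listed for 69 of the 78 members. The ETS letters CCGGAAG were present in 29 of them (42.0%), against 19.6% of 9924 tested protein-coding genes and 10.7% of all 27305 windows. The YY1 letters AAGATGG were present in 23 windows (33.3%), against 7.58% of tested protein-coding genes and 6.06% of all windows. Among 71 windows of cytosolic ribosomal protein genes, 23 held the ETS letters (32.4%) and 10 the YY1 letters (14.1%). By contrast, the NRF1 consensus (2 windows, 2.90% of members, 2.88% of tested protein-coding genes, 1.59% of all) and the E-box letters CACGTG (6 windows, 8.70%, against 10.1% and 7.43%) were about as frequent in the members as in the tested genes. The NRF1 consensus was searched as a longer run of letters than the ETS, YY1 or E-box motif. Its share of windows therefore cannot be compared with theirs, and it does not show that NRF1 sites are rare in the members. With 2 windows, the NRF1 comparison of members with tested genes also rests on few matches. The ETS letters end with AAG, with which the YY1 letters begin, so that the ETS and YY1 matches can share bases. In all, 43 windows held the ETS or the YY1 letters, and 24 held none of the 4 motifs.

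The ETS letters lay before the start in 26 of the 29 windows. They are shown here for the 3 largest falls and the rises that hold them among members with a mean count of at least 100, which leaves out MRPL53, 30 bases around the first match, in the direction of the gene, with the match in capitals (CTTCCGG is the same motif on the other strand), so that lowered and raised genes can be compared.
MRPS34, lowered, chr16:1773187-1773216, minus strand: cctcttcctcgCTTCCGGccgcgaccgaac
MRPL3, lowered, chr3:131502985-131503014, minus strand: tgtaaaacgcaCCGGAAGtgggtccggcgg
MRPL48, lowered, chr11:73787800-73787829, plus strand: aatttcagaagCTTCCGGaactaaaatgat
MRPL40, raised, chr22:19432523-19432552, plus strand: ggggcgcacgcCCGGAAGcggcgagggtag
MRPS18A, raised, chr6:43687804-43687833, minus strand: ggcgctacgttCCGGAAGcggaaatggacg

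These matches began 71, 32, 63, 11 and 31 bases before the start, in the order printed, and the MRPS34 window held 3 of them. The YY1 letters, which contain the letters ATG, lay at or after the start in 16 of the 23 windows. They are printed in the same way for the largest falls and the rises that hold them, where they began at base 24, 17, 25, 10 and 20 counted from the start.
MRPS18B, lowered, chr6:30617852-30617881, plus strand: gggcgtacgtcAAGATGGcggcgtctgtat
MRPS27, lowered, chr5:72320206-72320235, minus strand: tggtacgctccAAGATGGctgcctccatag
MRPL11, lowered, chr11:66438806-66438835, minus strand: acctctggcccAAGATGGtggcgcccagag
MRPS18A, raised, chr6:43687764-43687793, minus strand: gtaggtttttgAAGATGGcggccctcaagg
MRPS24, raised, chr7:43869480-43869509, minus strand: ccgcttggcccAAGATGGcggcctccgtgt

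The same letters thus stood in genes that moved in opposite directions. The ETS letters were present in 15 of 38 lowered members (39.5%), in 11 of 26 that did not pass the test (42.3%) and in 3 of 5 raised. For the YY1 letters the counts were 13 of 38 (34.2%), 8 of 26 (30.8%) and 2 of 5. A match is a run of letters and not a measured binding site, and binding was not measured here.

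Several regulators of mitochondrial genes were themselves lowered, 6 of 9 listed, and none was raised. The coactivator genes PPARGC1B and PPRC1 fell by 2.19 (SE 0.137) and 0.74 (SE 0.0532) on the log2 scale, from 0.956 to 0.211 FPKM and from 22.2 to 13.4 FPKM, and MYC fell by 0.69, from 77.9 to 48.5 FPKM. NRF1, GABPB1, YY1 and GABPA, whose letters were searched, were added to the named genes after their values were seen. NRF1 (-0.36), the GABP subunit gene GABPB1 (-0.24) and YY1 (-0.16) were lowered, and GABPA, the DNA-binding subunit, had a log2 fold change of 0.18 that did not pass (adjusted p = 0.0607). GABPA was raised without vehicle replicate 3 or without SCH replicate 1 (0.25 in both) and with the replicate block (0.18, adjusted p = 0.0462). It was also raised with library size only (0.28, adjusted p = 0.00509) and with no filter on low counts (0.20, adjusted p = 0.0451). GABPB1 was no longer lowered without vehicle replicate 3 (-0.18) or SCH replicate 2 (-0.22), nor YY1 without SCH replicate 2 (-0.14), and neither was with library size only (adjusted p = 0.143 and 0.309).

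Both subunits were affected to a similar extent by count. Of 51 genes for large-subunit proteins 28 were lowered, 4 raised and 19 did not pass, with a median log2 fold change of -0.18, and of 26 genes for small-subunit proteins 15 were lowered, 1 raised and 10 did not pass, with a median of -0.22. MRPS18A and MRPS30 were counted with the large subunit, where their proteins are found despite their names. MRPS36, now known as a component of a metabolic enzyme complex and not of the ribosome, was counted with neither and had a log2 fold change of 0.16 (adjusted p = 0.0902).

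Within the large subunit, 20 of the 29 members with a bacterial counterpart were lowered and none raised, with a median of -0.29. Of the 21 members whose proteins are found only in mitochondria 8 were lowered and 4 raised, with a median of -0.0646. MRPL55 was placed in neither class. The small subunit showed the other order. Of its 16 members with a bacterial counterpart 7 were lowered and 1 raised (median -0.12). Of its 10 mitochondria-specific members 8 were lowered and none raised (median -0.38). The 8 were MRPS34, MRPS25, MRPS18B, MRPS27, MRPS26, MRPS35, MRPS22 and MRPS23, and the other two, MRPS31 and MRPS33, were at -0.10 and -0.16 without passing. MRPS22 and MRPS23 were near the threshold (adjusted p = 0.0458 and 0.0446), and both calls were lost with DESeq2 (0.0889 and 0.0741) and with library size only (0.536 and 0.562). With any 1 of the 6 libraries left out MRPS22 did not pass (-0.17 to -0.13), and MRPS23 passed only without vehicle replicate 3 (-0.21, against -0.16 to -0.0941 in the rest). With the replicate block MRPS23 had an adjusted p of 0.0502. These differences between classes were not tested. The classes hold members only and leave out 5 ribosomal proteins whose genes have other names. Of those 5, 3 were lowered and 1, DAP3 of the small subunit, was raised.

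Only part of the members were assigned a place on the ribosome. By place, the members around the exit tunnel and the membrane side were lowered in 5 of 7 cases (71.4%). The share was 55.1% for all members and 29.4% for all genes tested. In this group of 7, the calls were as follows. Besides MRPL24 the lowered genes were MRPL23 (-0.39), MRPL17 (-0.24), MRPL47 (-0.21) and MRPL32 (-0.17). MRPL22 (-0.14) and MRPL45, which docks the ribosome to the inner membrane (-0.02), did not pass. MRPL47 was no longer lowered without SCH replicate 1 (-0.14), nor MRPL32 without vehicle replicate 1, SCH replicate 1 or SCH replicate 2 (-0.14 in each). With library size only neither passed (adjusted p = 0.161 for MRPL47 and 0.369 for MRPL32), and MRPL32 did not pass with DESeq2 (0.0514) or with no filter on low counts (0.0804). Near the peptidyl transferase center MRPL3, MRPL4 (-0.53) and MRPL16 (-0.29) were lowered, and MRPL2 and MRPL27 (both -0.14) did not pass. The stalk that recruits translation factors was mixed. MRPL12 and MRPL11 (-0.47), which forms its base, were lowered, MRPL10, which joins them, was at 0.07 (adjusted p = 0.343), and MRPL53 was raised. With library size only MRPL10 was raised (0.17, adjusted p = 0.0173).

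The central protuberance, where the subunits meet above the tRNAs, was mixed as well. MRPL48 and MRPL58 were lowered, MRPL40 was raised, and MRPL18 (-0.12), MRPL46 (-0.05) and MRPL38 (0.21) did not pass. In the small subunit MRPS12, the decoding-center protein known for streptomycin resistance in bacteria, fell from 56.4 ± 1.26 to 45.7 ± 0.714 FPKM (SD, n = 3), a log2 fold change of -0.31. In the head MRPS9 (-0.53) was lowered while MRPS7 (-0.09), MRPS10 (-0.06) and MRPS14 (0.13) did not pass, and on the platform MRPS21 (-0.46) was lowered while MRPS18C, MRPS6 and MRPS11 (0.01 to 0.05) did not pass. At the mRNA entrance MRPS24 was raised, and MRPS5 was at -0.11 (adjusted p = 0.118). The members placed by site were added to the named genes after their values were seen.

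Humans have 3 genes that descend from the bacterial S18 protein, of which MRPS18B was lowered, MRPS18A raised and MRPS18C did not pass. MRPS18A and MRPS18B were classed above as mitochondria-specific, since each holds a place of its own that bacterial ribosomes lack. MRPS18B measured 109, 112 and 108 CPM in vehicle and 77.7, 75.9 and 76.9 CPM in SCH, a log2 fold change of -0.51 (SE 0.0524, adjusted p = 1.35e-08). MRPS18C measured 24.1, 23.8 and 18.5 CPM against 25.7, 19.8 and 21.8 CPM, and the groups overlap. Whether the 3 genes differ from each other was not tested, and MRPS18C shares 40.2% of its exonic bases with other genes, including ABRAXAS1.

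Of the members with a further role, MRPL58, a peptidyl-tRNA hydrolase that rescues stalled ribosomes and became a ribosomal protein, measured 53.1, 47.8 and 46.5 CPM in vehicle and 32.5, 35.7 and 34.2 CPM in SCH (log2 fold change -0.53, SE 0.0696). MRPS30, a large-subunit protein first described in programmed cell death, measured 76.5, 78.2 and 85.4 CPM against 58.8, 60.2 and 64.3 CPM (-0.39, SE 0.0605). Neither gene overlaps another in its exons, and for both the lowest vehicle value lay above the highest SCH value.

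Although their proteins occur once per ribosome with few exceptions, the transcripts of the members covered a wide range of levels per length. MRPS34 (137 FPKM in vehicle), MRPL14 (130), MRPL41 (78.0), MRPL37 (74.6) and MRPL51 (70.7) were highest, and MRPL38 (0.888), MRPL46 (1.10) and MRPL53 (1.52) were lowest, with the highest 155 times the lowest. The median went from 22.5 FPKM in vehicle to 19.6 FPKM in SCH. Among the 39 members above the vehicle median 27 were lowered and 1 was raised, and among the 39 at or below it 16 were lowered and 4 raised. Spearman's rho between log2 fold change and vehicle FPKM was -0.314 over the 78 genes, given as a description, since all values come from the same 6 libraries and low counts carry more error.

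Among the other abundant members, MRPL37 fell by 0.29 on the log2 scale (SE 0.0493). MRPL14 measured 134, 142 and 111 CPM in vehicle against 114, 110 and 118 CPM, and MRPL51 119, 123 and 98.4 CPM against 108, 96.9 and 98.8 CPM. Both passed the test, at -0.18 (adjusted p = 0.0220) and -0.17 (adjusted p = 0.0388), although vehicle replicate 3 fell among the SCH samples. MRPL14 did not pass without vehicle replicate 1 or 2 or without SCH replicate 1 or 2 (-0.18 to -0.11), nor MRPL51 without vehicle replicate 1 or 2 or without SCH replicate 2 or 3 (-0.14 to -0.10). Without vehicle replicate 3 they were at -0.28 and -0.26. Both calls were also lost with library size only (adjusted p = 0.308 for MRPL14 and 0.430 for MRPL51) and with limma on log2(FPKM + 1) (0.119 and 0.158) and log2(FPKM + 0.1) (0.115 and 0.153), and that of MRPL51 with DESeq2 (0.0648).

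Overlap with other genes bears on many members, since the sources used here do not give how shared reads were assigned or whether strand was kept. In the 52 members that share under 10% of their exonic bases with another gene, 31 were lowered and 2 raised, with a median log2 fold change of -0.20, and in the other 26 members 12 were lowered and 3 raised, with a median of -0.14. For the 37 members with no shared exonic base the counts were 21 and 2, and the median was -0.19. Processed copies took little signal. All 75 annotated MRPL and MRPS pseudogenes together received 101 to 146 counts per library, equal to 0.118% to 0.142% of the members' counts, and 2 of them passed the filter.

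Summed over all members, the transcripts made up 0.506%, 0.503% and 0.486% of all counts in the vehicle samples and 0.442%, 0.444% and 0.454% in the SCH samples. Every SCH sample thus lay below every vehicle sample, and the mean share went from 0.499% ± 0.0110 to 0.447% ± 0.00637 (SD, n = 3), a ratio of 0.896. Relative to counts on nuclear protein-coding genes alone the ratio was 0.893. In normalized CPM the sum went from 5167 ± 143 to 4310 ± 69.0.

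Per length, the large-subunit sum went from 1534 to 1309 FPKM and the small-subunit sum from 731 to 574 FPKM. The ratio of large to small was 2.13, 2.13 and 2.04 in vehicle and 2.29, 2.27 and 2.27 in SCH, so that it was higher in each SCH sample. MRPS34 weighed on this ratio, as it made up 18.4% to 19.1% of the small-subunit sum in vehicle and 14.1% to 15.3% in SCH. Without it the ratios were 2.62, 2.63 and 2.50 against 2.71, 2.66 and 2.65, still apart but by much less. No test was made of sums over the members.

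**Figure D3:**
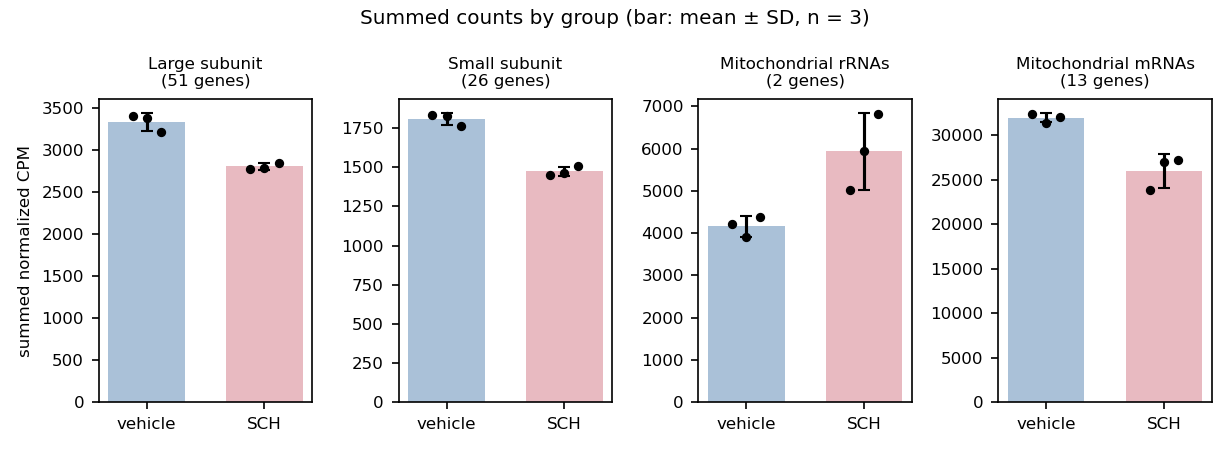
Summed normalized CPM (y axis, separate scales, all from 0) of large-subunit genes, small-subunit genes, the mitochondrial rRNAs and the mitochondrial mRNAs in vehicle and SCH; bars are means, error bars the SD and points the 3 samples per group. The 3 protein-coding sums are lower in SCH, whereas the rRNA sum is higher, at 5930 ± 901 against 4167 ± 248 CPM.

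The ribosomal proteins whose genes have other names were a small and mixed set. AURKAIP1 (-0.26), PTCD3 (-0.23) and GADD45GIP1 (-0.20) were lowered, and CHCHD1 (-0.12, adjusted p = 0.0930) did not pass. DAP3, a GTP-binding protein of the small subunit known from cell death studies, was raised by 0.14 (SE 0.0507, adjusted p = 0.0240), a call that was lost without vehicle replicate 2 (0.14) or SCH replicate 3 (0.11) and with upper quartile scaling (adjusted p = 0.0816). With library size only, PTCD3 (adjusted p = 0.0527) and GADD45GIP1 (0.0953) did not pass.

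The genes that build the mitochondrial ribosome and serve it were also lowered more often than raised. Of 24 genes for assembly and rRNA modification 12 were lowered and 1 was raised, with a median log2 fold change of -0.14. Examples are TFB1M (-0.69), the methyltransferase of the small-subunit rRNA, RPUSD4 (-0.55), a pseudouridine synthase acting on the large-subunit rRNA, and FASTKD2 (-0.38), needed for the same rRNA. Of 16 translation factors 8 were lowered and 1 raised (median -0.20), among them the ribosome recycling factor MRRF (-0.69) and the elongation factors TSFM (-0.45) and GFM1 (-0.32). Of 18 genes for mitochondrial transcription and RNA handling 13 were lowered and 1 was raised (median -0.28), including PNPT1 (-0.57), which degrades RNA, the stem-loop binding protein SLIRP (-0.44) and TBRG4 (-0.42). The lists were written from general knowledge.

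The RNA partners of these proteins moved in opposite directions. Both mitochondrial rRNAs were raised, MT-RNR2 of the large subunit by 0.53 on the log2 scale (SE 0.0661, adjusted p = 2.82e-07) and MT-RNR1 of the small subunit by 0.39 (SE 0.104, adjusted p = 0.00284), though for MT-RNR1 the groups overlapped and the call was lost with DESeq2 (adjusted p = 0.140) and with limma on log2(FPKM + 1) (0.0865) and log2(FPKM + 0.1) (0.0815). With 1 replicate left out it ran from 0.18 (without SCH replicate 3) to 0.54. Of the 13 mitochondrial mRNAs, which this ribosome translates, 8 were lowered and none raised, with a median of -0.17. MT-ATP6 fell by 0.70, MT-CO3 by 0.57 and MT-ND4 by 0.50. Because the libraries were made from poly-T purified RNA, the rRNA counts reflect captured molecules and not total rRNA.

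Set beside other gene groups of related function, the median of the members lay between those of the cytosolic ribosome and the respiratory chain. Of 85 tested cytosolic ribosomal protein genes 74 (87.1%) were lowered and none raised, with a median log2 fold change of -0.46. Of 80 tested nuclear genes of oxidative phosphorylation 29 (36.2%) were lowered and 7 (8.75%) raised, with a median of -0.0819. Over all genes tested 29.4% were lowered and 29.3% raised. The cytosolic list made up 6.47% ± 0.164 of all counts in vehicle and 4.97% ± 0.119 in SCH (SD, n = 3), without overlap, and the oxidative phosphorylation list was at 0.921% ± 0.0231 and 0.892% ± 0.0159 with overlapping groups, though in normalized CPM it was at 9545 ± 292 and 8605 ± 169 without overlap. The differences between these lists were not tested.

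**Figure D4:**
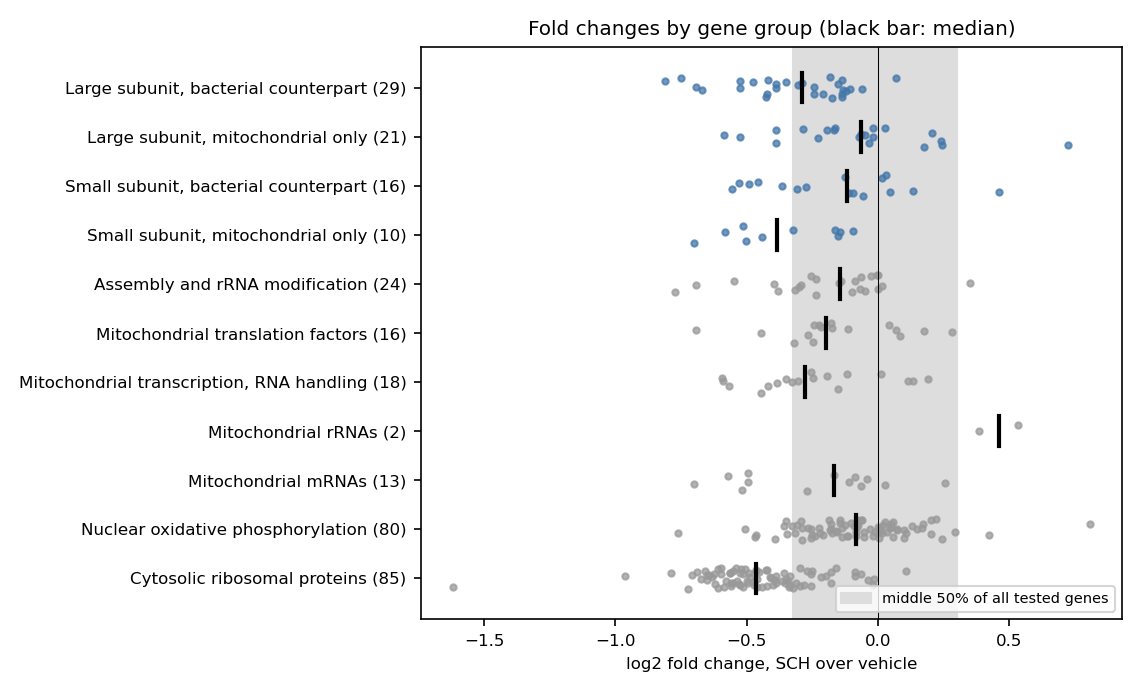
The log2 fold change of SCH over vehicle (x axis) for single genes (points) in 4 classes of members (blue) and 7 other gene groups (gray), with the number of genes tested in brackets; black bars are medians and the gray band spans the middle 50% of all tested genes, from -0.32 to 0.30. The medians of the 4 member classes run from -0.38 to -0.0646, the cytosolic ribosomal proteins lie further left at -0.46 and the mitochondrial rRNAs to the right of 0.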

How the data were processed

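RNA sequencing covered 6 samples, 3 per group, at 16836369 to 20291379 counts per sample. The authors deposited raw counts per gene, unnormalized, and FPKM values per sample, from poly-T purified mRNA libraries (NEBNext Ultra kit, HiSeq). The submitters' processing notes name CASAVA 1.8, HISAT2 2.0.5, featureCounts 1.5.0-p3 and DESeq2 1.20.0 with GRCh38, without their roles. Counts depend on how reads shared by overlapping genes were assigned, and strand use is not given in the sources used here.

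Counts were fitted over the whole table with edgeR 4.0.16 (R 4.3.3, TMM, filterByExpr, quasi-likelihood test of SCH against vehicle, no covariates, Benjamini-Hochberg adjustment over 14736 genes, threshold 0.05). Standard errors were derived from the F statistic, dividing the size of each log2 fold change by its square root. FPKM served to compare levels between genes. Data were simulated for this comparison with 195 of 14538 genes run changed and the same variation between replicates for every gene. There 75.5% of genes changed by 0.5 (log2) and 90.1% of those changed by 1 were recovered, with 6.9% false calls. Far more genes were called in the real data (58.7%), so these rates need not hold for them. Exonic overlap was computed from GENCODE annotation and promoter letters from the first RefSeq window listed per symbol.

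The members, lists and tests were chosen with earlier results of these data known. Named genes were the 6 largest falls and 6 largest rises among called members counted 100 times or more on average with groups apart (4 rises qualified), the 5 highest and 3 lowest vehicle levels, members of special role, all ribosomal proteins of other names and the 3 smallest p of each other list apart from the cytosolic ribosomal and oxidative phosphorylation lists, of which no gene is named. Genes named beyond this rule were added after their values were seen. Alternatives were other scalings and filters, DESeq2 1.42.0, limma 3.58.1 on log2(FPKM + 1) and log2(FPKM + 0.1), a replicate block, a threshold of 0.01 and leaving out each replicate. Members under 10% overlap and members without MRPS36 were alternatives added after seeing the data. Replicates of a group differed by more than sampling noise and none was a copy of another.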

Additional observations from a re-analysis of the deposited data

How the results depend on the processing

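The count of lowered members, 43, ranged from 33 (library size only) to 52 (upper quartile), with 38 in DESeq2 and 35 to 48 when 1 replicate was left out. The background moved too. Over all genes 4332 were lowered with TMM, 3295 with library size only, 4675 with the upper quartile and 3922 in DESeq2. When 1 replicate was left out, 3873 to 4203 of all genes were lowered. The count of raised members, 5, was 8 with library size only and 3 at an adjusted p under 0.01, and 3 to 5 when 1 replicate was left out (3 without vehicle replicate 3). Of all genes, 4318 were raised with TMM, 5519 with library size only and 3935 to 4286 when 1 replicate was left out. With library size only the medians were -0.0753 for all members, -0.0794 for the large and -0.114 for the small subunit, and 62.6% of all called genes were raised against 49.9% with TMM. With 1 replicate left out they ran from -0.21 to -0.15, from -0.21 to -0.15 and from -0.24 to -0.18. Same-numbered replicates did not deviate together (correlations 0.0464, -0.0222 and 0.022), and with the replicate block 42 members were lowered and 5 raised, with a median of -0.18. That block gave 4350 lowered and 4355 raised over all genes. Of 51 named members 25 kept direction and call under every alternative. With 1 replicate left out, MRPL2, MRPS7 and CHCHD1 passed without vehicle replicate 3 (-0.22, -0.14 and -0.15), as did MRPS33 (-0.22), MRPL27 without vehicle replicate 2 (-0.17) and MRPS36 without SCH replicate 1 (0.23). With the upper quartile MRPL18 (-0.16), MRPL22 (-0.17), MRPL2 (-0.17), MRPL27 (-0.17), MRPS5 (-0.14) and CHCHD1 (-0.15) were lowered, with at least 10 counts in every sample MRPL27 (-0.14) was too, and with library size only MRPL10 (0.17), MRPS14 (0.24) and MRPS36 (0.26) were raised. Genes that changed sign had not passed the test in the first place, and the cause was not tested. With library size only MRPL45 was at 0.0827, MRPL46 at 0.0560, MRPS31 at 0.00691, MRPS10 at 0.0443 and MRPS7 at 0.00998, and with the upper quartile MRPS18C was at -0.0182 and MRPS6 at -0.00225. With 1 replicate left out, values ran from -0.0479 to 0.0228 for MRPL45, from -0.166 to 0.0687 for MRPL46, from -0.0209 to 0.0867 for MRPS11, from -0.0975 to 0.106 for MRPS18C, from -0.0175 to 0.120 for MRPS6 and from -0.0763 to 0.409 for PECAM1. Depth limits the lowest members most, since MRPL53, MRPL38, MRPS24 and MRPS17 had mean counts of 51.7, 66.7, 112 and 125 per library.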

Other observations

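Genes of the mitochondrial chaperones and proteases, which fold and clear imported proteins such as the ribosomal ones, were largely lowered. Of 10 listed, 6 were lowered and 1 was raised, with a median log2 fold change of -0.44. The chaperonin gene HSPD1 fell by 0.59 on the log2 scale (SE 0.0463), from 190 to 127 FPKM, the HSP90 relative TRAP1 by 0.72 (SE 0.0574), from 18.3 to 11.1 FPKM, and the import motor chaperone HSPA9 by 0.54 (SE 0.0449), from 85.7 to 59.0 FPKM.

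The members are scattered over 21 chromosomes, with no more than 8 on any of them, and span 1266 to 351418 bases of the genome with a median of 11937. Spearman's rho of the log2 fold change with exonic length was 0.0916 and with the share of exonic bases overlapping another gene 0.152, over 78 genes, given as descriptions from the same 6 libraries.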
